A study of Mus musculus with 2 samples.

Results

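The H2 genes of chromosome 17 were placed among the chromosome domain boundaries of mouse olfactory sensory neurons. All annotated genes of any type whose symbol starts with H2- were taken, 45 of 53843 genes annotated on the autosomes and X (GENCODE M21, GRCm38), and no such symbol lay on another chromosome. The set held 34 protein-coding genes and 11 pseudogenes. By symbol they fell into 2 class I K genes, 12 class II genes, 9 class I D and Q genes, 7 class I T genes, 14 M genes and H2-Ke6.

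The cells were mature neurons sorted for expression of 1 olfactory receptor gene, Olfr17 (also called P2), from the olfactory epithelium of adult P2-GFP mice of the strain 129P2/OlaHsd, both sexes mixed, without treatment. In situ Hi-C, which ligates DNA ends that lie near each other in the nucleus, was run on 23000 cells of replicate 1 and 20000 cells of replicate 2. The authors called boundaries on the combined contacts of both replicates, so there is 1 list of 7576 boundaries, no control group and no spread between animals. No expression values were among the data, so the identity of the cells rests on the sort.

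Histocompatibility genes encode cell surface proteins that show peptides to T cells. Class I proteins pair with beta-2-microglobulin and are made by most nucleated cells, while class II proteins are made mainly by professional antigen-presenting cells. The M genes lie at the far end of the complex. In mice, H2-M10 proteins are known from vomeronasal neurons, where they are found with type 2 vomeronasal receptors, and the complex runs directly into a cluster of olfactory receptor genes. Contacts between the DNA on either side of a domain boundary are fewer than within the domains it parts. An interval here is the stretch between the midpoints of neighbouring boundaries.

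Most regions of the complex shared no interval with another H2 region. The 45 genes, placed by transcription start site (TSS), occupied 9 intervals, and 8 of these held H2 genes of 1 region alone. The 9 intervals also held 51 protein-coding genes that were neither H2 nor Olfr genes. The exception held H2-K2 and H2-K1 together with H2-Ke6, a gene named for its place in the complex that encodes a hydroxysteroid dehydrogenase. Of the 5 steps from one region to the next along the chromosome, 4 had at least 1 boundary between the neighbouring H2 genes. Among neighbouring genes of any type the share was 15.3%. That share is of directly adjacent annotated genes, while H2 genes at a step can have other genes between them, so the pairs are not alike. Each of these 4 steps had a Strong one (the authors' class, which in their list holds every score above 0.5). The steps differ in length: class II to D and Q spans 918 kb and Q to T 550 kb, both longer than the median interval of 260 kb. H2-Ke6 to class II spans 48.1 kb and T to M 96.2 kb, with 1 boundary each, and H2-K1 to H2-Ke6, 27.7 kb apart, had none. With Strong boundaries alone, H2-K2 to H2-Ke6 shared an interval of 145 kb, all 12 class II genes shared one of 520 kb, all 9 D and Q genes one of 570 kb and all 7 T genes one of 415 kb. The 9 M genes from H2-M10.2 to H2-M10.5 shared one of 560 kb.

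**Figure D1:**
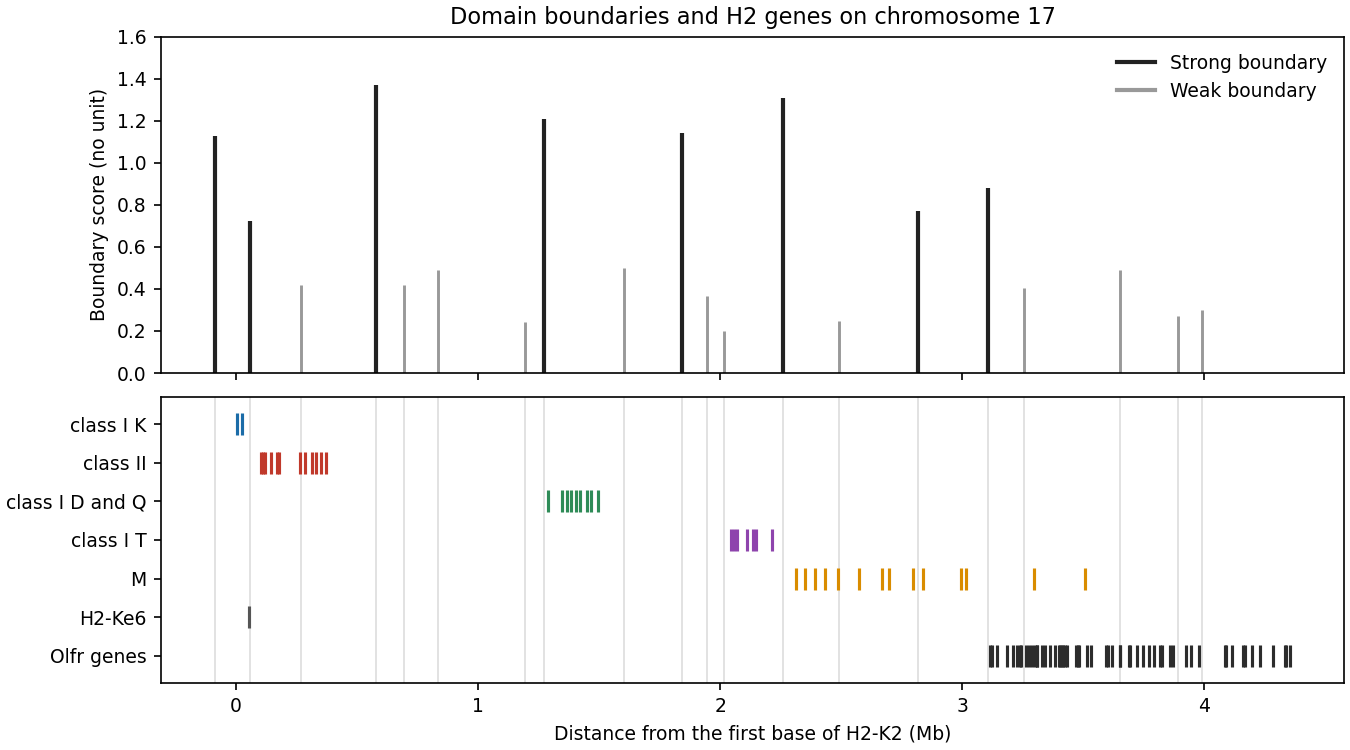
Boundary scores (upper panel, no unit) and the TSSs of H2 and Olfr genes (lower panel, 1 tick per gene) against distance from the first base of H2-K2 in Mb; grey lines in the lower panel repeat the boundary positions. The 9 D and Q genes and the 7 T genes each stand between neighbouring boundaries, while M genes are spread over 4 intervals and the last of them stand among Olfr genes.

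Boundaries were denser around the H2 genes than on chromosome 17 or over all chromosomes, by less than the counting interval. The span was taken from the first base of H2-K2 to the last of H2-M2 (chr17:33974659-37483552, GRCm38). It held 16 boundaries in 3.51 sequenced Mb, or 4.56 per Mb (95% Poisson interval 2.61 to 7.40), against 3.10 per Mb on all of chromosome 17 and 2.96 per Mb over the autosomes and X. Protein-coding genes were also dense there, at 49.3 per Mb of the span, 11.5 per Mb of chromosome 17 and 8.50 per Mb over the autosomes and X, and the part of gene density in the boundary count was not tested. Of the 16 boundaries, 7 were Strong (43.8%, exact binomial interval 19.8 to 70.1), against 51.8% on chromosome 17 and 53.4% of all boundaries. Their median score was 0.494, against 0.545 for all. Scores have no stated unit and are compared only within this list, and the intervals cover counting error alone.

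Among neighbouring H2 genes, 8 of 44 pairs (18.2%) had a boundary between their TSSs, against 15.3% of neighbouring genes of any type. The H2 pairs are neighbours among H2 genes alone and can have other genes between them. The pairs of any type are directly adjacent annotated genes. For TSSs at most 100 kb apart it was 5 of 38 pairs (13.2%), against 9.78%. Of the 39 pairs from the same region 4 were split: H2-Ob and H2-Ab1, H2-M10.4 and H2-M11, H2-M10.5 and H2-M10.6, and H2-M5 and H2-M3. Because the pairs differ in kind, the shares of split pairs are not read as like or unlike those for all genes.

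Sequence at the flanking boundaries is shown because several of the windows are near-copies of each other. The 13 boundaries that flank an interval with H2 genes were searched within 10 kb for the CTCF core consensus, a 12-base pattern of the zinc finger protein that marks many domain borders, on both strands. A match lay near 11 of 13 (84.6%), against 58% of all boundaries, and within 5 kb of 10 of 13, against 40.3% of all. The pattern is common, with 3767 matches in the 91.7 sequenced Mb of chromosome 17. The share of positions away from boundaries that have a match was not computed. For the longer strict consensus it was 4 of 13 (30.8%), against 13.8%. The nearest matches, read 5′ to 3′ on their own strand of GRCm38 with the core in capitals, follow for 8 of the boundaries. The first 5 are the alike ones described below. The last 3 are the matches nearest to the boundaries with the highest scores and to the one between H2-M10.5 and H2-M10.6. The matches shown lay 0.187 to 5.22 kb from the bin midpoints, and most were outside the 5 kb bins.
Left end of the K interval, chr17:33891992-33892033, plus strand: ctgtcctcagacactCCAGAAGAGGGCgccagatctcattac
H2-Ke6 and class II border, chr17:34035039-34035080, plus strand: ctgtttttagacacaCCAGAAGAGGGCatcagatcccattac
H2-Ob, chr17:34237263-34237304, minus strand: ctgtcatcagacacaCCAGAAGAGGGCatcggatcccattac
H2-D1 side, chr17:35251712-35251753, plus strand: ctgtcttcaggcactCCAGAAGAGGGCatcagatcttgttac
H2-M10.4 side, chr17:36467293-36467334, minus strand: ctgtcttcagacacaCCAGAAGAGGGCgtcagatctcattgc
Class II and Notch4 border, chr17:34555655-34555696, minus strand: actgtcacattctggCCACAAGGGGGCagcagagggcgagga
T and M border, chr17:36229473-36229514, minus strand: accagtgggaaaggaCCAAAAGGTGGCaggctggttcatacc
H2-M10.5 and H2-M10.6, chr17:36789027-36789068, minus strand: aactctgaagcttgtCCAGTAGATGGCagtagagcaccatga

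The first 5 windows shared the core CCAGAAGAGGGC and were alike beyond it. With the window at the Olfr90 boundary (tcagacataCCACAAGAGGGCatcagatcc, chr17:37084847-37084876, minus strand, in the untranslated part of Olfr90), they formed a group of 6 whose pairs were identical at 80 to 90.5% of bases. All other pairs among the 11 windows were identical at 31 to 63.3%. The core CCAGAAGAGGGC made up 50358 of the 88670 core matches on the autosomes and X (56.8%). On chromosome 17 this core made up 2216 of 3767 core matches, and 5 of the 11 windows here held it. Windows at boundaries elsewhere were not compared, so the likeness is not read as particular to these boundaries. Mouse B2 repeats are known to carry CTCF motifs, and repeat annotation was not used here. Without this core, a match lay near 7 of 13 flanking boundaries (53.8%), against 38.6% of all boundaries. The 7 include the Olfr90 boundary, whose window is in the alike group but has another core. A match is a run of letters and not measured binding.

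The class I K genes and H2-Ke6 lay at the left end in interval 1, 145 kb long. H2-K1 encodes a classical class I heavy chain, and H2-K2 is a pseudogene. A Strong boundary over exons of Kifc1, a kinesin gene (chr17:33885001-33890000, score 1.13, higher than 80.8% of all boundaries), closed the interval on the left, 113 kb from the TSS of H2-K1. On the right a Strong boundary over the start of Rxrb, a retinoid X receptor gene (chr17:34030001-34035000, score 0.724), lay 32.2 kb from H2-K1, 53.7 kb from H2-K2 and 4.44 kb from H2-Ke6. With 16 protein-coding TSSs, or 11.03 per 100 kb, it was the most gene-dense of the 9 intervals. Tapbp, whose product tapasin loads peptides onto class I proteins, was in it too, 28.4 kb from the left boundary.

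The class II genes were divided by a Weak boundary inside H2-Ob, which encodes the beta chain of H2-O, an inhibitor of H2-DM. The bin (chr17:34240001-34245000, score 0.417, higher than 38.5% of all boundaries) covers several exons of H2-Ob, with its midpoint 3.60 kb from the TSS. H2-Ob was the only one of the 45 genes that touched a boundary bin. To the left, in an interval of 210 kb, lay H2-Pb and H2-Pa (pseudogenes), H2-Oa (the alpha chain of H2-O), H2-DMa, H2-DMb2 and H2-DMb1, whose products exchange peptides on class II proteins, and the TSS of H2-Ob. Tap1 and Tap2, which carry peptides into the endoplasmic reticulum, and the immunoproteasome genes Psmb8 and Psmb9 were in the same interval, 39.0 to 54.9 kb from the boundary at H2-Ob.

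To the right, in an interval of 310 kb, lay H2-Ab1 and H2-Aa, which encode the I-A heterodimer, then H2-Eb1, H2-Eb2 and H2-Ea-ps of the I-E genes. H2-Ab1 stood 15.2 kb from the boundary at H2-Ob, H2-Aa 45.3 kb, H2-Eb1 63.4 kb, H2-Eb2 83.2 kb and H2-Ea-ps 102 kb. The other end of the interval was the boundary with the highest score of the complex, a Strong one 208 kb beyond H2-Ea-ps (chr17:34550001-34555000, score 1.37, higher than 87.5% of all), with Notch4 11.8 kb to its right. Genes for presenting chains thus lay on one side of the H2-Ob boundary, and H2-DM, H2-Oa and the peptide transporters on the other. H2-Ob itself straddles it, since the midpoint of its annotated body falls to the right. With Strong boundaries alone both groups share 1 interval.

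Between H2-Ea-ps and H2-D1, 918 kb apart, lay 5 boundaries and 4 intervals without H2 genes, which held 59 protein-coding TSSs. Complement, heat shock and tumour necrosis factor genes are among those known from this stretch. In this stretch the Weak boundaries lay 3.04 kb from Tnxb (tenascin), 2.94 kb from Cyp21a1 (steroid hydroxylase) and 8.57 kb from Aif1. Prrc2a was nearer than Aif1 to the last of these, at 2.60 kb. The intervals without H2 genes inside the complex, 8 in all, had a median length of 128 kb (70 to 360), against 260 kb for all 7556 intervals.

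**Figure D2:**
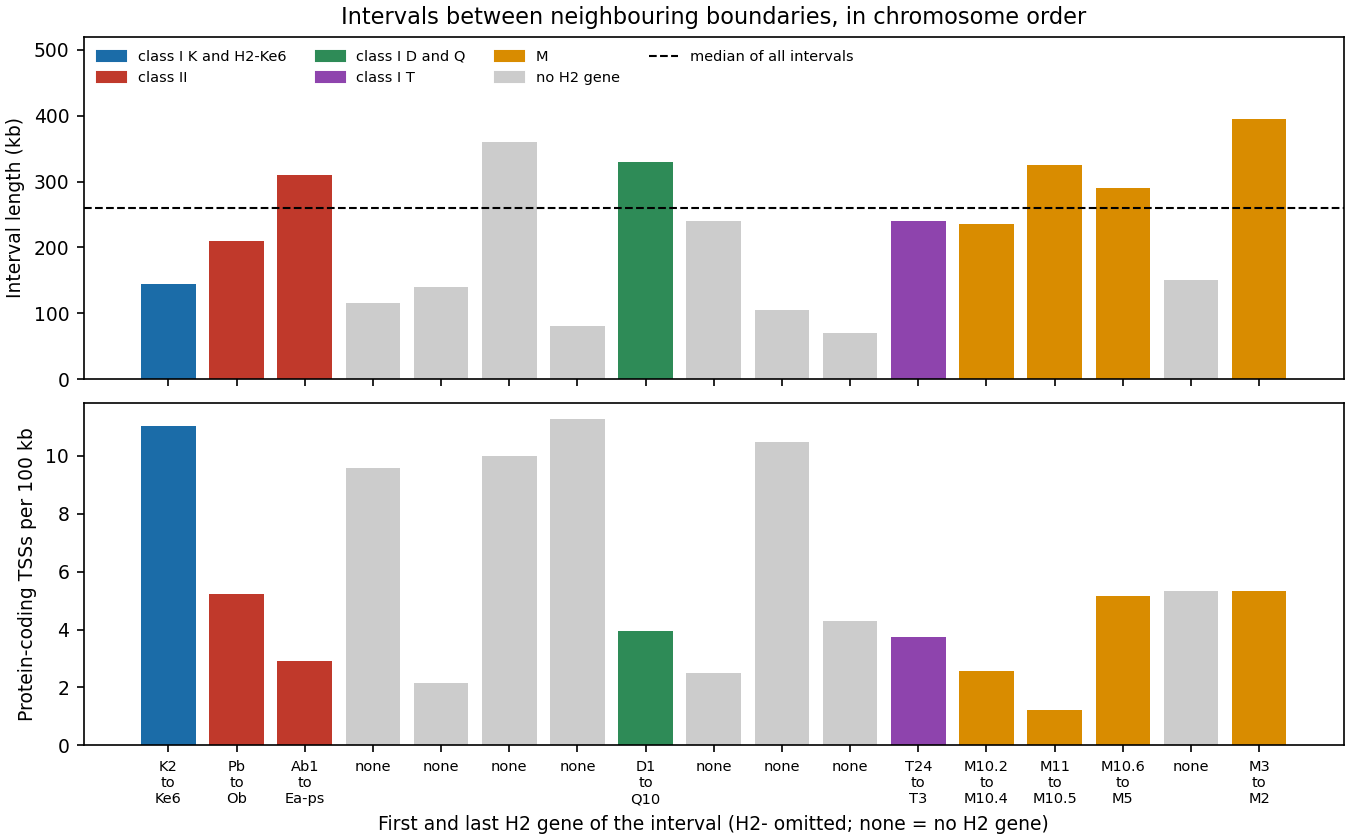
Length in kb (upper panel) and protein-coding TSSs per 100 kb (lower panel) of each interval from H2-K2 to H2-M2 in chromosome order, coloured by H2 region and grey where no H2 gene was present. The 9 intervals with H2 genes were 145 to 395 kb long and held a median of 3.94 protein-coding TSSs per 100 kb, against 7.45 in the 8 without.

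The intervals with H2 genes had a median length of 290 kb (145 to 395), against 260 kb for all intervals (quartiles 180 and 395). The fewest genes stood in 3 of them. The interval from H2-M11 to H2-M10.5 had 1.23 protein-coding TSSs per 100 kb, that from H2-M10.2 to H2-M10.4 had 2.55 and that from H2-Ab1 to H2-Ea-ps had 2.90.

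All 9 D and Q genes shared 1 interval of 330 kb. H2-D1, the other classical class I gene of this set, stood 15.2 kb to the right of a Strong boundary over an exon of Ddx39b, an RNA helicase gene (chr17:35245001-35250000, score 1.21, higher than 83.3% of all), and 15.2 kb was the shortest distance in this region. The Q genes ran on from H2-Q1 at 72.9 kb. H2-Q6 at 153 kb was the H2 gene farthest from any boundary, and H2-Q7, which encodes the Qa-2 antigen, lay at 138 kb. H2-Q10, whose product is secreted by the liver, lay 107 kb from the right end, a Weak boundary with a score of 0.4996, just under the class threshold (chr17:35575001-35580000). Pou5f1, the pluripotency factor, Tcf19 and Cdsn were in the same interval. Their distances to its right end were 71.5, 60.7 and 25.4 kb.

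The T genes also shared 1 interval, of 240 kb. H2-T24 lay 28.1 kb from its left end, a Weak boundary whose score of 0.202 ranked 7540 of 7576 (chr17:35990001-35995000). H2-T23, the Qa-1 gene whose product is read by natural killer cell receptors, lay at 40.4 kb from it and H2-T22, a ligand of gamma delta T cell receptors, at 50.2 kb. H2-T3, the thymus leukaemia antigen gene, was nearest the right end, at 42.2 kb. That end was a Strong boundary between the T and M regions (chr17:36230001-36235000, score 1.31, higher than 86.2% of all). H2-Bl, H2-T-ps and H2-T10 stood inside at 91.7, 119 and 111 kb from a boundary.

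**Figure D3:**
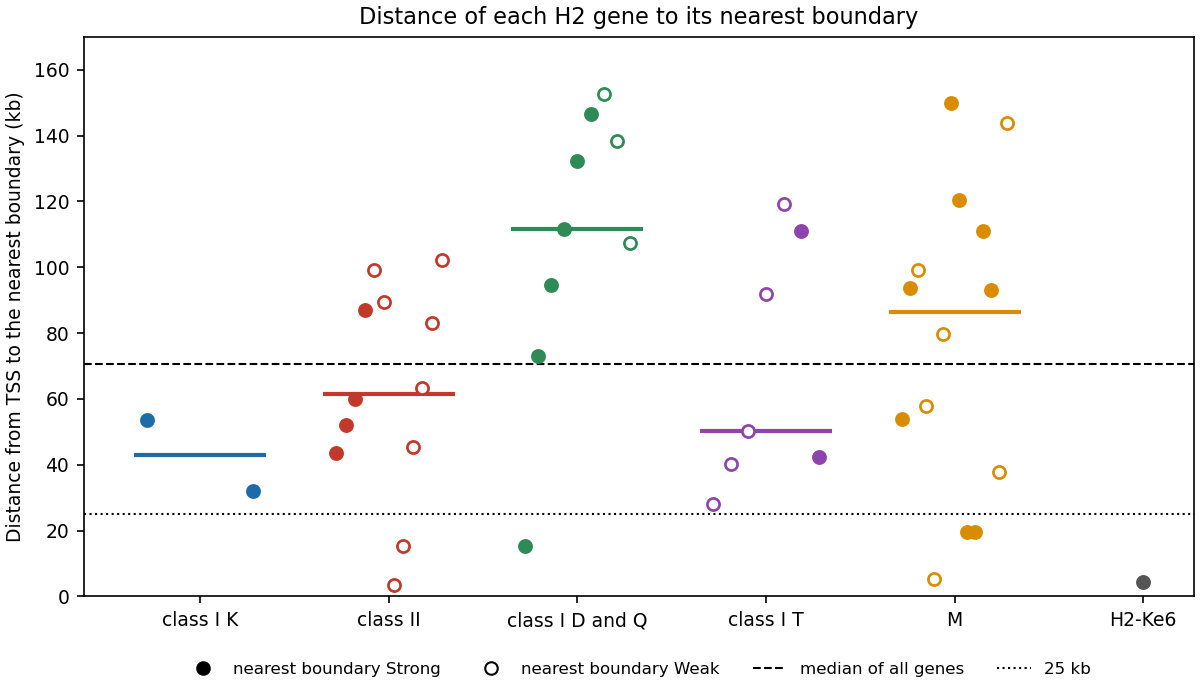
Distance in kb from the TSS of each H2 gene (1 point per gene, in chromosome order within a region) to its nearest boundary, filled where that boundary was Strong; bars are medians, the dashed line the median of all genes (70.7 kb) and the dotted line 25 kb. The D and Q genes had the highest median, 111 kb, and 7 of the 45 genes lie under the dotted line.

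The share of H2 genes near a boundary was below that of all genes, by less than its counting interval. It was 7 of 45 by TSS at 25 kb (15.6%, exact binomial interval 6.49 to 29.5), against 19.7% of all genes of any type and 21.8% of those on chromosome 17. For protein-coding genes it was 7 of 34 (20.6%), against 23.9%. At 10 kb it was 3 of 45, against 8.86%, at 50 kb 14 of 45, against 37%, and at 100 kb 32 of 45, against 64.3%. By gene body it was 8 of 45, against 26.2%, and by Strong boundaries alone 4 of 45, against 12.4%. The 7 genes within 25 kb were H2-Ob (3.60 kb), H2-Ke6 (4.44 kb), H2-M10.4 (5.17 kb), H2-Ab1 (15.2 kb), H2-D1 (15.2 kb), H2-M10.5 (19.6 kb) and H2-M10.6 (19.7 kb). The median distance was 79.6 kb for H2 genes and 70.7 kb for all genes. Neighbours share a boundary, so the genes are not independent. The median was 42.9 kb for the K genes, 61.6 kb for class II, 111 kb for D and Q, 50.2 kb for T and 86.3 kb for M. The 3 farthest genes were H2-Q6 (153 kb), H2-M9 (150 kb) and H2-Q5 (147 kb).

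The 14 M genes lay in 4 intervals over 1199 kb, and the 12 class II genes in 2 intervals over 271 kb. H2-M10.2, H2-M10.1, H2-M10.3, H2-M10.5-ps1 and H2-M10.4 lay in the first, of 235 kb, at 54.0, 93.7, 99.1, 58.0 and 5.17 kb from a boundary. A Weak boundary (chr17:36465001-36470000, score 0.247) beside H2-M10.4 parted them from H2-M11, H2-M9, H2-M1 and H2-M10.5 in the next interval, of 325 kb, which held no other protein-coding gene. H2-M11 lay 79.6 kb and H2-M1 120 kb from a boundary. The H2-M10 genes accounted for 3 of the 7 H2 genes within 25 kb, or 3 of 7 of their own number (42.9%). Without them it was 4 of 38, against 19.7% of all genes.

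H2-M10.5 and H2-M10.6 stood on opposite sides of a Strong boundary (chr17:36790001-36795000, score 0.771, higher than 65.0% of all), with their TSSs 39.3 kb apart, both transcribed to the right, and 19.6 and 19.7 kb from it. Their upstream sequences are close copies and are shown for that reason. The 200 bases before the RefSeq start of each gene (GRCm38.p6, plus strand) had 169 identical bases of 196 aligned (86.2%), with the Y box, CTGATTGG on either strand, in capitals.
H2-M10.5, chr17:36772710-36772909: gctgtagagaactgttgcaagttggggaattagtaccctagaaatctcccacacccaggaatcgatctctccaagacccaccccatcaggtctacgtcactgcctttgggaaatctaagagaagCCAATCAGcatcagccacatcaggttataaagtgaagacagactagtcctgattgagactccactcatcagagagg
H2-M10.6, chr17:36811975-36812174: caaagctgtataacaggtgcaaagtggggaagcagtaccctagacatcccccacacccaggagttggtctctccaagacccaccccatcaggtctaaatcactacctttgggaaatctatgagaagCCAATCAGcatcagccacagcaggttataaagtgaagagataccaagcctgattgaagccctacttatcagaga

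The Y box, a site of the NF-Y complex known from promoters of class I and class II genes, was common across the family. RefSeq promoters (300 bases each, mostly before the start) were found for 32 of the 45 genes, and 18 of the 32 (56.2%) held the letters, against 4.7% of 27025 genes. By region it was 4 of 8 for class II, 3 of 6 for D and Q, 2 of 4 for T, 8 of 12 for M, and 5 of 6 for H2-M10 genes. H2-K1 held it and H2-Ke6 did not. An element known from interferon-stimulated genes, searched as TTTCNNTTTC on both strands, was present in 2 of 32 (6.25%), H2-T22 and H2-T23, against 3.99% of genes. The Y box was in the promoters of both H2-M10.4 and H2-M11, on either side of the boundary beside H2-M10.4.

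H2-M10.6 opened the third M interval, of 290 kb, which ended at the border with the olfactory receptors and also held H2-M6-ps and H2-M5 at 111 and 93.0 kb from a boundary. With 13 other protein-coding genes, it included Trim26 and Ppp1r11, Mog (a myelin protein) and Gabbr1 (a receptor for the transmitter GABA).

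The border between H2-M and olfactory receptor genes had a boundary at 1 of 5 places, against 15.3% of neighbouring genes of any type (9.78% at most 100 kb apart). Those shares are of directly adjacent genes, whereas H2-M5 and Olfr90 have other genes between them. A Strong boundary (chr17:37080001-37085000, score 0.883, higher than 70.7% of all) lay between H2-M5 and Olfr90, 93.0 kb from the TSS of H2-M5 and 5.999 kb from that of Olfr90, and its bin overlaps the 3′ end of Olfr90. Zfp57, Mog and Gabbr1 lie between H2-M5 and this boundary, on the H2 side. The receptor cluster held 58 Olfr genes from Olfr90 to Olfr136 in 1253 kb, and H2-M3 and H2-M2 lie inside it.

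**Figure D4:**
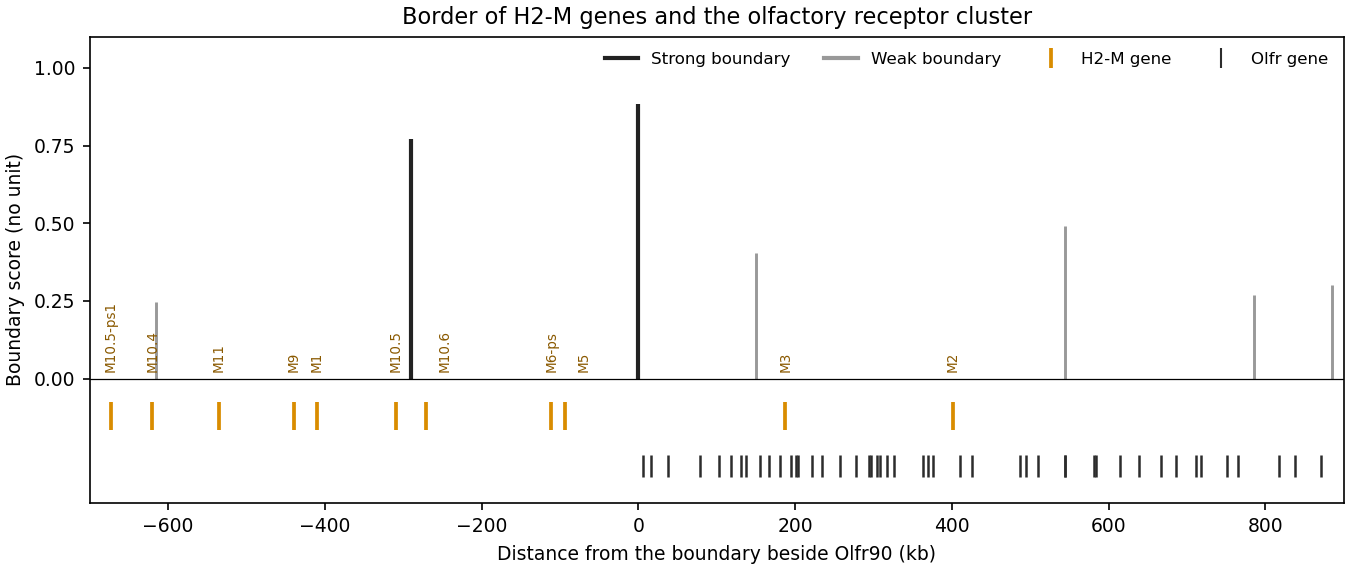
Boundary score (no unit) against distance in kb from the boundary beside Olfr90, with ticks for TSSs of H2-M genes (upper row) and Olfr genes (lower row). No Olfr gene stands among the H2-M genes to the left of 0, and H2-M3 and H2-M2 to the right stand among Olfr genes between Weak boundaries of 0.405 and 0.492.

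H2-M3, which presents peptides with a formylated end, had Olfr98 at 6.47 kb on its left and Olfr755-ps1 at 6.43 kb on its right (TSS to TSS). H2-M2 lay 213 kb farther on, between Olfr109 at 24.6 kb and Olfr110 at 8.92 kb. None of these 4 borders had a boundary. Their TSSs were 6.43 to 24.6 kb apart, and those of H2-M5 and Olfr90, which had one, 99.0 kb apart. H2-M3 and H2-M2 shared an interval of 395 kb with 26 Olfr genes and no other protein-coding gene. It was the only interval with genes of both families and the longest of the 9. Its ends were Weak boundaries beside Olfr97 (chr17:37230001-37235000, score 0.405) and Olfr116 (chr17:37625001-37630000, score 0.492).

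The cluster held 4 boundaries, all Weak, with scores of 0.269 to 0.492 and a median of 0.352. The 15 boundaries from H2-K2 to the start of the cluster had scores of 0.202 to 1.37 and a median of 0.4996, and 7 of them were Strong, so the ranges overlap. With Strong boundaries alone, H2-M3 and H2-M2 lay in an interval of 2765 kb, against a median of 385 kb between Strong boundaries. The 2 Weak boundaries around H2-M3 and H2-M2 were also the only flanking ones with no CTCF core match within 10 kb, and the nearest lay 24.7 and 48.0 kb away.

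**Figure D5:**
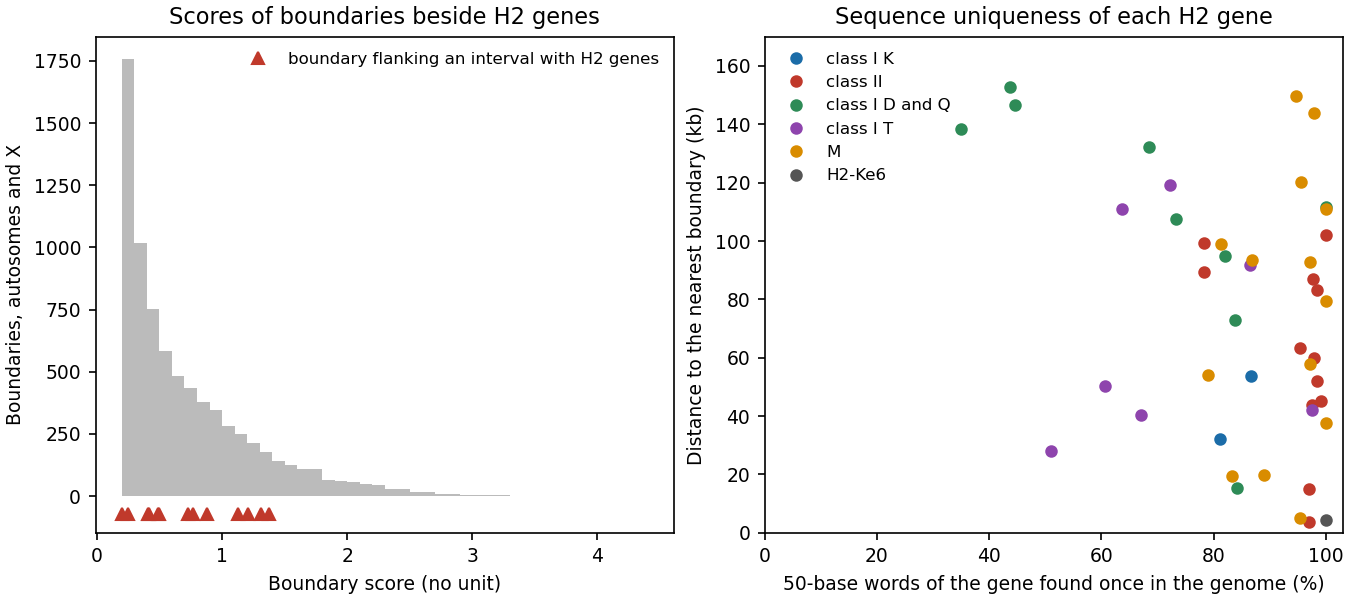
Left, scores of the 13 boundaries that flank intervals with H2 genes (red triangles) below the histogram of all 7576 scores. Right, distance to the nearest boundary in kb against the share of each gene's 50-base words that occur once in the genome in percent, 1 point per H2 gene; genes of the D and Q region reach down to 34.9% and have no boundary nearer than 72.9 kb except H2-D1.

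The 13 flanking boundaries spanned much of the range of scores, from 0.202 to 1.37, with a median of 0.724 against 0.545 for all boundaries, and 7 of 13 (53.8%) were Strong against 53.4% of all.

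Several of these genes are close copies of each other, which limits where reads can be placed. The share of 50-base words found once in the reference was 85.6% over the span and 89.3% over the rest of chromosome 17. It was 59.7% across the D and Q genes and 64.4% across the T genes, each a block without a boundary inside, and 92.2% across class II. It was lowest in H2-Q7 (34.9%), H2-Q6 (43.7%) and H2-Q5 (44.6%). In the H2-M10 genes it was 78.9 to 97.2%. Within 50 kb of the flanking boundaries it was at least 80% at 12 of 13, the exception being the one beside Olfr116 (79.2%). The D and Q block is 212 kb long and the T block 185 kb, both shorter than the median interval of 260 kb. The K block, 25.7 kb long and 89.4% unique, had no boundary inside either. The part of low uniqueness in the absence of boundaries inside the D and Q and T blocks was not tested. Coordinates follow the genome of C57BL/6J mice, so H2 genes that 129P2/OlaHsd mice carry in other numbers or places were not resolved.

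Genes of the presentation pathway outside the H2 family, listed with class I-like genes such as Hfe, Fcgrt and Azgp1, lay on several chromosomes. Of 27 listed genes, 5 (18.5%) lay within 25 kb by TSS, against 19.7% of all genes of any type and 23.9% of protein-coding genes. The 5 include Hfe (13.4 kb) and Fcgrt (18.6 kb), whose products do not present peptides. The difference was not tested. Calr, a chaperone of class I assembly, lay nearest at 9.43 kb. Farthest were Azgp1 at 194 kb, Nlrc5, the class I transactivator, at 137 kb and Rfxap, a subunit of the factor that binds class II promoters, at 135 kb. B2m, the partner chain of class I proteins, lay at 120 kb and Ciita, the class II transactivator, at 62.4 kb.

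A hand-made list of other genes of the complex had a larger share near boundaries, which was not tested. Of 44 listed genes between or beside the H2 genes, 15 (34.1%) were within 25 kb. The share was 19.7% for all genes of any type and 23.9% for protein-coding genes. The listed genes had a median of 38.2 kb to a boundary, against 59.2 kb for protein-coding genes and 79.6 kb for the H2 genes. Rxrb (0.688 kb), Cyp21a1 (2.94 kb), Tnxb (3.04 kb), Flot1 (5.73 kb), Ppp1r10 (6.07 kb), Col11a2 (6.94 kb), Ring1 (7.82 kb) and Aif1 (8.57 kb) were within 10 kb. The heat shock genes Hspa1l (165 kb), Hspa1a (165 kb) and Hspa1b (152 kb) were the farthest. The lists were put together by hand, and many of these genes share the same few boundaries. The share over all other genes of the complex is not given here. Boundaries were also denser in the H2 span, at 4.56 per Mb against 2.96 over the autosomes and X. The part of this density in the share was not tested.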

How the data were processed

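In situ Hi-C with DpnII was run on 2 biological replicates, which form 1 group. The deposited list gives, per 5 kb bin, a class and a boundary score without a stated unit, and the authors called it on the combined contact matrix of both replicates, per the series' design text. The build is GRCm38, per the submitters' processing notes. Not given in the sources used here are the caller, its window, the aligner and how many contacts were kept, so the depth is unknown. The contact matrix and the insulation and compartment tracks were not used here.

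Genes came from GENCODE M21 and sequence from RefSeq's GRCm38.p6, the same build, with 1-based coordinates. Each boundary was set at the middle of its bin, and genes were placed by annotated TSS. With 1 list, no test over samples was possible, and the values are descriptions beside those of all genes, intervals or boundaries. Regions were set from the symbols. The CTCF core (88670 matches) and strict (6562) consensus were searched on both strands. Uniqueness is the share of 50-base words, taken every 20 bases of chromosome 17, that occur once on the assembled chromosomes. Scripts ran in Python 3.11.15 with numpy 2.4.6 and were tested on simulated data.

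The members and the lists were chosen with earlier results of these data known. The rule named H2 genes within 25 kb of a boundary, the 3 farthest, the first and last of each interval, all H2-M10 genes, the H2-M and Olfr neighbours and, of the other lists, genes within 10 kb and the 3 farthest. All further genes with values were named after these were seen. The promoter motifs and the comparison without the commonest core were also chosen after seeing the data.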

Additional observations from a re-analysis of the deposited data

How the results depend on the processing

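Of 27 alternatives, 12 gave values within 1.5 times the reported one. Many of these values are counts, which can only fall at a shorter distance or with fewer boundaries or genes. At a longer distance they can only rise, so the tally does not measure robustness. The number of H2 genes near a boundary was 3 at 10 kb (8.86% of all genes), 14 at 50 kb (37%), 32 at 100 kb (64.3%), 4 with Strong boundaries alone (12.4%) and 4 without the H2-M10 genes (19.7%). It lay below the share of all genes in each of these except at 100 kb, where it was 71.1%. With Strong boundaries alone the span held 7 boundaries and the median interval was 520 kb. The presentation list gave 1 gene at 10 kb (3.7%), 12 at 50 kb (44.4%) and 3 with Strong boundaries alone (11.1%), above the share of all genes at 50 kb and below it in the others. The list of other genes of the complex gave 8 (18.2%), 28 (63.6%) and 9 (20.5%), above the share of all genes each time. CTCF matches lay near 4 flanking boundaries for the strict consensus and near 7 without the commonest core, an alternative chosen after seeing the data. The 4 steps between regions with a boundary and the 1 border with Olfr genes had the same number with Strong boundaries alone. No replicate could be left out, and no paired analysis was possible because the list combines both replicates. Nothing here measures how far boundaries vary between animals.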
